A study of Mus musculus with 9 samples.

Results

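A total of 660 oligonucleotide probes carried an on-off mark pattern in mouse liver: they were marked well above background in fetal liver and in liver cancer but not in adult liver. They were chosen from 58141 probes whose identifiers start with ASMM10 and do not end in UP and a number, which make up most of the 60915 probes of the array. A member had to carry the mark on all 3 fetal and all 3 liver cancer arrays and on none of the 3 adult arrays. The members thus form 1.14% of their class. The 3 fetal livers came from embryos at day 17.5, the 3 adult livers from male mice aged 2 months, and the 3 liver cancers from male mice aged 1 year in which DEN (diethylnitrosamine, a liver carcinogen) had induced tumours. Total RNA was labelled with the dye Cy3 and hybridised to 1 array per sample. The sex of the embryos, the mouse strain and the litters are not given in the sources used here, and the tumours differ from adult liver in age and DEN exposure as well as in tissue. The samples are described as independent with no animal or litter named, so a p-value covers no more than their spread, which may be technical.

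Oncofetal transcripts are made in the fetal organ, fall away after birth and return in a tumour. The fetal liver is a growing organ that also houses blood formation, and the adult liver turns to metabolism and to plasma protein synthesis. The study profiled long non-coding RNAs, which are transcripts without a protein product, beside protein-coding RNAs, and checked the tumours by their cell morphology. Probe sequences and gene names of the members were not used here, so each member is given by its identifier, and liver and tumour markers were not read. In bulk tissue, fewer cells of a type and less RNA per cell cannot be told apart.

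The mark depends on how bright an array is, and the arrays differed in brightness. Levels are therefore given as log2 processed signal minus the 75th percentile of the same array, so that 0 is the 75th percentile. That percentile lay at a processed signal of 131 to 188 on the fetal arrays, 91.6 to 110 on the adult arrays and 87.8 on liver cancer replicate 1. It lay at 409 and 355 on liver cancer replicates 2 and 3, which were scanned apart from the other 7 arrays. The lowest signal marked well above background stood at a level of -3.27 to -2.57 on the fetal arrays and -2.31 to -2.09 on the adult arrays. On liver cancer replicates 1, 2 and 3 it stood at -2.44, -4.26 and -3.96. A transcript of the same relative level was thus marked more readily on the fetal and liver cancer arrays, and on liver cancer replicates 2 and 3 above all, than on the adult arrays. Of the class, 48.0%, 56.3% and 49.5% of probes were marked on the fetal arrays, 42.8%, 44.4% and 43.4% on the adult arrays, and 45.0%, 70.6% and 69.3% on the liver cancer arrays.

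The mirror pattern, marked on all adult arrays and on no fetal or liver cancer array, was held by 26 probes against 660 on-off probes. The 660 also compare with 487 probes marked in fetal liver alone, 476 in liver cancer alone, 454 in adult liver and liver cancer but not in fetal liver, and 16 in fetal and adult liver but not in liver cancer. On all 9 arrays 20890 probes were marked, and 13429 on none. Liver cancer replicate 1 decided the number of members: without it the pattern was held by 2209 probes, and 1549 probes missed the rule on this array alone. On the 7 arrays of the first scan, which hold liver cancer replicate 1 alone, 671 probes were on-off, all 660 members among them, while the mirror pattern was held by 183. With 1 limit for all arrays, at a level of -2.09 (the highest of the 9 limits, chosen after the data were seen), 279 probes were on-off and 268 were mirror probes. Of the 279, 258 were members. On-off and mirror probes were thus nearly equal in number under this limit, which asks for a level in place of the mark. The part of the unequal limits in the 660 against 26 was not tested.

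Most of the probes were dim rather than without signal in adult liver. Whether that signal came from a transcript was not tested. A weaker mark in the files, positive and significant against the background, was carried on all 3 adult arrays by 485 of the 660 members (73.5%). A further 97 members carried it on 2 adult arrays, 42 on 1 and 36 on none. Of the class, 30532 probes lacked the stronger mark on every adult array, and 5375 of these (17.6%) carried the weaker one on all 3. When the weaker mark was used for the rule, 506 probes were on-off and 20 mirror, and 36 of the 506 were members. The name on-off is therefore used below for the mark pattern only, not for the absence of a transcript in adult liver.

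The members' median level was -1.16, -1.22 and -1.16 on the fetal arrays, -2.92, -2.83 and -2.90 on the adult arrays, and -1.64, -1.66 and -1.59 on the liver cancer arrays. These values show what the rule selected, and no test is given for them. All usable fetal arrays lay above all adult arrays for 577 of 659 members, and all liver cancer arrays did so for 515 of 660. On liver cancer replicate 1 the level exceeded every adult array for 643 members, and on both replicates 2 and 3 for 517. The rule favours such order between the groups, and these counts were not made over probes outside the members. The mean level in liver cancer was below the adult mean for 23 members, and the fetal mean was below it for 7, although the marks ran the other way.

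Most members sat near the edge of the rule: 176 of the 660 were at least 2-fold above the lowest marked signal on all 6 fetal and liver cancer arrays. The members closest to the limit were ASMM10P055360, with a processed signal of 24.7 on fetal liver replicate 1 (1.01 times the lowest marked signal there), ASMM10P026921 with 21.6 on liver cancer replicate 2 (1.02 times) and ASMM10P041613 with 16.5 on liver cancer replicate 1 (1.02 times). Just outside lay ASMM10P027862 and ASMM10P045350, which failed on fetal liver replicate 1 alone, both at a signal of 24.5. ASMM10P051877 failed on liver cancer replicate 1 alone, at 16.2. In all, 2258 probes of the class missed the rule on exactly 1 array. The mark takes each spot's own background into account, so a spot can be unmarked at a signal slightly above the lowest marked one. ASMM10P026921 shows what this does to levels. Its liver cancer levels were -2.13, -4.24 and -3.72, and its adult levels were -2.69, -2.79 and -2.73, so that both liver cancer arrays of the second scan lay below all adult arrays.

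Because a member is below the mark in adult liver, its excess over adult liver is given as a lower bound. The adult value was taken per array as the higher of the probe's own signal and the lowest signal marked well above background. The median bound was 2.01-fold for fetal liver and 1.51-fold for liver cancer. In fetal liver 331 members were at least 2-fold higher, 178 at least 4-fold and 97 at least 8-fold. In liver cancer 201, 80 and 31 members reached these bounds. In both groups at once, 133 members were at least 2-fold, 35 at least 4-fold and 8 at least 8-fold above adult liver. For 173 members no excess over the adult limit was left in at least 1 of the groups. The number of members at least 2-fold higher in both groups was 135 with liver cancer replicate 1 as the only liver cancer array. It was 40 with normexp background correction, where plain differences were used and dim values are pulled together.

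ASMM10P047496 had the largest bound that held in both groups. It measured 7.04, 6.93 and 7.08 on the fetal arrays and 4.39, 3.65 and 3.56 on the liver cancer arrays, against -4.37, -4.56 and -3.76 on the adult arrays. The 3 groups lay far apart, with liver cancer between the others. Over adult liver it was at least 601-fold higher in the fetal samples, and in the tumours at least 67.6-fold.

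ASMM10P044480 was about equally high in both tissues. It measured 3.54 and 3.75 on the usable fetal arrays and 3.23, 3.83 and 3.86 on the liver cancer arrays, against -3.33, -4.08 and -4.31 in adult liver. It was at least 58.2-fold higher in fetal liver and at least 58.0-fold higher in the tumours than in adult liver. Its spot on fetal liver replicate 3 carried an outlier mark and was left out. The fetal and liver cancer arrays overlapped.

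ASMM10P007601 and ASMM10P006945 were higher in liver cancer than in fetal liver on every array, though neither difference was called. ASMM10P007601 stood at 2.18, 2.30 and 2.56 in fetal liver and 4.04, 2.94 and 2.91 in liver cancer, at least 23.6-fold and 45.6-fold above adult liver. ASMM10P006945 stood at 1.46, 1.69 and 1.68 in fetal liver and 2.73, 2.17 and 1.98 in liver cancer, at least 14.2-fold and 22.8-fold above it. In contrast, ASMM10P025152 was higher in fetal liver, at 2.88, 3.04 and 2.90, than in liver cancer, at 1.62, 1.41 and 1.64. It was at least 35.7-fold and 13.7-fold above adult liver.

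The other members at least 8-fold above adult liver in both groups were ASMM10P013492, ASMM10P035578 and ASMM10P046901, the first 2 of which were named after their values were seen. ASMM10P013492 was the most even of them, at 1.25, 1.29 and 1.33 in fetal liver and 1.73, 1.76 and 1.87 in liver cancer. ASMM10P035578 was constant in fetal liver (0.95, 0.96 and 0.95) but not in liver cancer, where replicate 1 stood at 2.83 and replicates 2 and 3 at 4.72 and 4.87. It held the highest mean level of any member in liver cancer, 4.14 ± 1.14 (SD, n = 3), and rose by 3.18 log2 over fetal liver (limma adjusted p = 0.00055). On liver cancer replicate 1, the only one of the first scan, it stood 1.87 above the fetal mean.

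One more member, ASMM10P044477, was bright in both tissues but could not be tested. Its spot was marked as not uniform on all 3 fetal arrays, where the marked spots read 6.77, 6.87 and 6.49. It stood at 2.30, 3.49 and 3.39 in liver cancer and at -3.57, -4.30 and -4.41 in adult liver.

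Most of the brightest fetal members were far lower in liver cancer. Of the 9 members with a mean level of at least 6 in fetal liver, 8 had a mean level of 0.36 or less in liver cancer, the exception being ASMM10P047496. ASMM10P044477, without a usable fetal mean, is not among the 9. The 9 were picked by their fetal level, which favours a lower level in liver cancer, and other probes as bright in fetal liver were not counted. ASMM10P047627 was the highest in fetal liver, at 8.98 and 9.12 on the 2 usable arrays, and stood at -0.84, -1.53 and -1.34 in liver cancer and -2.59, -3.16 and -3.73 in adult liver. ASMM10P043618 stood at 8.87, 8.87 and 8.91 in fetal liver, 0.89, 0.19 and 0.01 in liver cancer, and -4.33, -4.29 and -4.35 in adult liver. Over adult liver it was at least 2194-fold higher in fetal liver and at least 5.97-fold in the tumours. ASMM10P014370 (8.54 and 8.74 on the usable fetal arrays) and ASMM10P004647 (8.32, 8.33 and 8.30) reached at least 4.17-fold and 2.16-fold in liver cancer. For ASMM10P015877, at 6.25, 6.25 and 6.13 in fetal liver, no excess over the adult limit was left in liver cancer. In all these members the marks are equal in both tissues, but the levels are not.

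Liver cancer was then set directly against fetal liver. The rule did not compare these groups with each other, but it asked for the mark on all their arrays, at unequal limits. More members were lower than higher in liver cancer. Of the 660 members, 659 were tested, and 217 fell and 57 rose (limma, adjusted p under 0.05 with a minimum 2-fold difference). These are 32.9% and 8.64% of the 660, where 22% of all 34103 tested probes were called lower and 20.4% higher. The median difference was -0.40 log2 over the members and 0.05 over all tested probes. Of the class probes marked on all 9 arrays, 20386 were tested, with 20.1% called lower and 19.2% higher. The groups did not overlap for 291 members lower and 111 members higher in liver cancer (44.1% and 16.8%), against 29% and 29.4% of all tested probes.

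The first scan holds a single liver cancer array, replicate 1, so a fit within it takes the spread from the fetal and adult arrays, assumes that the lone tumour varies like them, and gives no check over tumours. There 167 members were called lower and 62 higher (25.3% and 9.39%), against 20.1% and 18.5% of all probes. Of the 217 members called lower over all arrays, 156 were also called lower there, and of the 57 called higher, 40 were also called higher. Of the tested members, 175 were at least 2-fold above the lowest marked signal on all 6 arrays. Over all 9 arrays, 70 of these 175 were called lower (40%) and 15 higher (8.57%). All tested probes, without this cut, gave 22.0% and 20.4%, and other probes past the same cut were not counted. The marks entered the choice of members on every one of these arrays, and the part of the unequal limits in these shares was not tested. With normexp background correction 103 members were called lower and 27 higher (15.6% and 4.09%), against 12.1% and 10% of all tested probes.

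The members called lower were high in fetal liver (median level 0.39) and low in liver cancer (-1.81), and 113 of them differed at least 4-fold and 68 at least 8-fold. How many of all tested probes passed these folds was not counted. ASMM10P047627 fell by 10.28 log2 units, or 1246-fold (SE 0.36, limma adjusted p = 2.58e-07, 2 usable fetal arrays), the largest difference among the members. ASMM10P004647 fell by 9.42 (SE 0.18, limma adjusted p = 2.55e-08), a 685-fold difference. ASMM10P014370, ASMM10P015877 and ASMM10P043618 fell by 8.79, 8.77 and 8.52. Within the first scan, with liver cancer replicate 1 alone, these 5 differences were -9.89, -9.35, -8.67, -8.29 and -8.00. ASMM10P047496 fell by 3.15 (SE 0.29, limma adjusted p = 1.87e-05), and ASMM10P025152 by 1.39 (SE 0.19, limma adjusted p = 0.000269).

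The members called higher were dim in fetal liver, with a median level of 0.24 in liver cancer and -2.74 in adult liver, and were called higher at a median of 1.75 log2. Of these, 23 differed at least 4-fold and 9 at least 8-fold, again without a count over all tested probes. ASMM10P033668 rose most, by 4.19 log2 units or 18.3-fold (SE 0.30, limma adjusted p = 4.49e-06). It stood at -0.64, -0.25 and -0.98 in fetal liver and 2.96, 3.84 and 3.89 in liver cancer. ASMM10P041758 rose by 4.13 (SE 0.23, limma adjusted p = 9.45e-07), from -1.69, -1.53 and -1.44 to 2.95, 2.41 and 2.36. The groups lay apart on every array for both. With normexp background correction the rises were 3.37 for ASMM10P033668 and 2.81 for ASMM10P041758.

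ASMM10P001201 rose by 3.67, ASMM10P016173 by 3.23 and ASMM10P046901 by 3.20. With normexp background correction these rises were smaller, at 2.18, 2.43 and 2.80. ASMM10P001201 was even within each group, at -1.94, -1.88 and -1.85 in fetal liver and 1.99, 1.60 and 1.75 in liver cancer. ASMM10P046901, at 0.92, 0.87 and 0.94 in fetal liver, reached 4.68 on liver cancer replicate 1 and 3.82 on each of the others. ASMM10P016173 was lower on liver cancer replicate 1 (1.43) than on replicates 2 and 3 (3.04 and 2.88), and its difference was 2.21 within the first scan.

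The other 385 tested members were not called, and for 358 of them the difference was under 2-fold. Their median levels were -1.63 in fetal liver and -1.64 in liver cancer, against -2.91 in adult liver. Of all 34103 tested probes, 14462 were called in either direction and the rest were not, a similar share. The difference of ASMM10P044480 was -0.00 ± 0.35 (SE, 2 fetal and 3 liver cancer arrays, limma adjusted p = 0.993). For ASMM10P006945 it was 0.68 ± 0.32 (limma adjusted p = 0.105) and for ASMM10P007601 0.95 ± 0.32 (limma adjusted p = 0.0311), the latter under the minimum fold. ASMM10P007601 differed by 1.69 on liver cancer replicate 1 alone. It passed the minimum fold without fetal liver replicate 3 (1.05) and without liver cancer replicate 2 (1.13) or 3 (1.14).

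For the members closest to the limit the call depended on the setting. ASMM10P026921 fell by 1.89 over all arrays (limma adjusted p = 0.00787), but the difference was -0.66 on liver cancer replicate 1 alone, where it was not called. ASMM10P041613 fell by 1.39 (limma adjusted p = 0.0103). Its difference was -1.72 on the first-scan arrays, and with normexp background correction it was no longer called (-0.55). ASMM10P055360 stood at 0.99, under the minimum fold, and was called without liver cancer replicate 2 (1.24).

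Levels of the members repeated closely among the fetal arrays and less so among the liver cancer arrays. Between arrays the median SD was 0.17 log2 for fetal liver, 0.38 for adult liver and 0.37 for the tumours. For class probes marked on all 9 arrays it was 0.17, 0.15 and 0.43. All usable fetal arrays lay within 2-fold for 643 members, and all liver cancer arrays for 465. Liver cancer replicates 2 and 3 lay within 2-fold of each other for 628 members. The counts within 2-fold were made over the members only. As a description over 660 members of the same arrays, Spearman's rho was 0.93 to 0.94 between fetal arrays and 0.88 between liver cancer replicates 2 and 3. It was 0.51 and 0.50 between liver cancer replicate 1 and replicates 2 and 3. Between the fetal and the liver cancer means it was 0.23.

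Liver cancer replicate 1 stood at least 2-fold above both other liver cancer arrays for 47 members and at least 2-fold below both for 49. How many probes outside the members did so was not counted, so this split is not given as particular to them. The widest gaps, named after their values were seen, ran both ways. ASMM10P024036 stood at 1.42 on replicate 1 and at -3.43 and -2.89 on replicates 2 and 3. ASMM10P048944 stood at -2.01 on replicate 1 and at 2.40 and 2.27 on the others. Neither was called over all arrays, at differences from fetal liver of 0.94 and 0.13, while replicate 1 alone differed by 3.99 and -2.77. For such members the mean over the 3 liver cancer arrays describes none of them, and whether the tumour or the scan differs cannot be told apart.

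The few mirror probes included 2 very bright ones. ASMM10P027186 had an adult level of 5.67 ± 0.13 (SD, n = 3) and was at least 366-fold higher there than in fetal liver. ASMM10P019947 had an adult level of 4.06 ± 0.03 and was at least 120-fold higher than in fetal liver. Over liver cancer they were at least 599.9-fold and 196-fold higher.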

How the data were processed

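Total RNA of 9 mouse liver samples was hybridised to 1-colour arrays, and the deposited files hold spot intensity values from Agilent Feature Extraction 11.0.1.1, per the file headers, with 1 file per array. The software's processed signal, given beside a background-subtracted signal and with statistics of a spatial detrending fit in the same files, was used as deposited, together with the marks for well above background, positive and significant, and outlier spots.

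Levels were log2 processed signal minus the array's 75th percentile over 60915 non-control probes; outlier spots were left out. limma 3.58.1 in R 4.3.3 was fitted over all 9 arrays with Benjamini-Hochberg adjustment over 34103 probes, those well above background on at least 3 arrays and usable on at least 2 per group. The script was tested on simulated data. Lower bounds used the adult mean of the higher of the probe's signal and the array's lowest marked signal. The number of arrays limits the precision.

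The members and lists were chosen with earlier results of these data known. Named members were the 5 with the largest bounds in both groups, the 5 brightest, the 5 highest and 5 lowest called differences without overlap, 3 just inside and 3 just outside the rule, and 2 mirror probes. Lists of cell type markers were not used, since the probes are given by identifier only. Alternatives covered scaling, background (normexp with offset 50, on median signals, as the files used here hold no mean spot signal), filters, floor, samples, scan, replicate block, variance model, thresholds and left-out arrays. The 1 common limit, plain normexp differences over adult liver and the members 2-fold above the limit were added after the data were seen. Replicate numbers were not taken to pair the samples in the main fit.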

Additional observations from a re-analysis of the deposited data

How the results depend on the processing

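With 1 array left out at a time, the number of on-off probes ran from 664 to 2209 (the latter without liver cancer replicate 1) and that of mirror probes from 26 to 37. Members at least 2-fold above adult liver in both groups ran from 126 to 146, members called lower from 193 to 243 and higher from 52 to 81, and the median difference from -0.56 (without liver cancer replicate 1) to -0.33. Both counts of called members were highest without liver cancer replicate 1, where 25.05% of all tested probes were called lower and 23.05% higher. Both were lowest without fetal liver replicate 3, where these shares were 20.29% and 18.96%. Calls over all tested probes thus moved the same way, from 22.0% and 20.4% over all arrays. Without liver cancer replicate 1 the median difference of all tested probes was -0.012. The first scan alone gave 183 mirror probes, and 1 limit for all arrays gave 279 on-off and 268 mirror probes. With normexp, 103 members were called lower and 27 higher (15.6% and 4.09%), beside 12.1% and 10% of all tested probes. The median was -0.16, and 40 members exceeded adult liver 2-fold in both groups. Scaling to the array median moved the median difference to -0.63, where that of all tested probes shifted by -0.23 (by -0.11 with quantile normalization). Among members 2-fold above the limit, 70 were called lower and 15 higher, of fewer tested members (175), beside 22.0% and 20.4% of all tested probes without this cut. The cause of the other shifts was not tested. With the replicate block, 220 members were called lower and 61 higher, beside 22.3% and 20.7% of all tested probes. The deviations of same-numbered fetal and liver cancer samples correlated at 0.17, 0.31 and -0.03, and 2 of 3 fetal and 1 of 3 liver cancer samples correlated best with their own number. With 3 samples per group, these values cannot decide whether the numbers pair the samples. Of the named probes' differences under the alternatives, 358 kept their call, 4 lost it (ASMM10P026921 and ASMM10P041613), 7 gained one (ASMM10P007601 and ASMM10P055360) and none reversed.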

Other observations

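Some bright members had neighbouring identifiers. ASMM10P014370 and ASMM10P014372 both belonged to the fetal-high members, the latter at 6.95, 6.90 and 6.99 in fetal liver and -1.74, -1.60 and -1.29 in liver cancer. ASMM10P044471, ASMM10P044477 and ASMM10P044480 were members within 10 successive identifiers. ASMM10P044471 stood at -0.73, -0.38 and -0.53 in fetal liver, and at -1.62, 1.81 and 1.96 in liver cancer. Between them, ASMM10P044479 was bright on all 9 arrays, from 3.28 to 4.93, and ASMM10P044478 was marked on the 3 fetal arrays only. These probes were named after their values were seen. Over the class, the identifiers next to a member were members in 22 of 1318 cases (1.67%), against 1.14% of the class. The sources used here do not say what the numbering follows. Membership also varied with position on the array: 400 members lay among the upper rows of spots (1.38% of the class probes there) and 260 among the lower rows (0.894%), divided at the middle row. On liver cancer replicate 1, 46.1% of class probes were well above background among the upper rows and 44.0% among the lower. On adult liver replicate 2 these shares were 43.5% and 45.4%. The other arrays differed less, in both directions, and the part of the arrays in the difference was not tested.

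Outside the class, the rule was met by few probes. Of 923 probes whose identifier ends in UP and a number, 5 (0.542%) were on-off, and of 1836 probes named as lincRNA, 2 (0.109%); these shares were not tested against that of the class.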
